A study of Mus musculus with 24 samples.

Results

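The genes described here are 9 adhesion molecules of blood vessels and the leukocytes that meet them: the selectins Selp and Sele, the selectin ligand Selplg, the junctional proteins Jam2, Pecam1 and Cdh5, and the integrin ligands Vcam1, Icam1 and Icam2. They were found by gene symbol in the annotation of the array, with the entry of highest mean kept where a symbol had several. All 9 were found, each as 1 entry (a transcript cluster, the set of probes that reads 1 gene) among 22206 clusters tested, which carried 19505 distinct symbols. The RNA came from mouse liver cells selected for the macrophage surface antigen that Adgre1 encodes, and was hybridised to 24 Clariom S arrays in 8 groups of 3. The mice were C57BL/6, and their livers were either whole or had lost 70% of their mass (LR) 24 h, 3 days or 7 days earlier. Animals of the LR+SE groups had been splenectomised 7 days before the resection and were taken at the same 3 times. The SE group had lost the spleen and kept the liver. The control group is labelled intact, whereas the methods describe sham surgery with the liver preserved, and the sources do not settle which. Each preparation pooled cells of several mice, and the sources do not say whether the 3 arrays of a group came from separate pools. The numbers of mice they state are too few for 3 separate full pools in every group. Arrays of a group may therefore share mice, which the p-values below do not take into account.

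Leukocytes leave the blood in steps. Selectins on activated endothelium and platelets catch them by binding sugars on ligands such as PSGL-1, integrins then hold them on ICAM and VCAM proteins, and JAM proteins, PECAM-1 and VE-cadherin line the junctions through which they pass. In the liver most leukocytes enter through sinusoids, whose endothelium carries little selectin at rest, and Kupffer cells of mice carry VCAM-1 themselves.

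Values were deposited as normalised log2 signal, and every difference below is on that scale, first group minus second, with its standard error and the adjusted p of limma, a linear model fitted to all clusters and all 24 arrays (Benjamini-Hochberg over 22206 clusters). A difference was called when its adjusted p was under 0.05. Background was set at 3.98, the 95th percentile of clusters for odorant receptors, and all 9 genes lay above it on all 24 arrays. The array number limited the precision, and the median SD within groups was 0.46 over clusters above background. Clec4f, which encodes a Kupffer cell lectin, read 19.67, 19.41 and 19.21 in intact preparations. Markers of other cells were present as well, as given beside the results they touch. Transcripts of the Y chromosome (Kdm5d, Eif2s3y and Uty) went against the stated male sex on 5 arrays: their mean was at most 3.08 on the 3 intact arrays, replicate 2 of LR 7 days and replicate 1 of LR+SE 3 days, and at least 6.75 on the other 19. All LR 24 h and SE arrays carried this signal and no intact array did. Calls of the 9 genes at LR 24 h against intact are therefore also given with it as a block. List genes, marker lists, F5 and SE against intact are given without the block. Only LR 7 days and LR+SE 3 days held arrays of both kinds, so the estimate of the block rests on these groups alone. Replicate 2 of LR 24 h had the lowest Clec4f of its group (15.94), and replicate 2 of LR+SE 3 days that of its own (16.57).

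At 24 h after resection with the spleen in place, 6 of the 9 genes differed from the intact group, against 7.59% of all clusters. Selp, Sele, Jam2 and Icam1 rose (4 of 9, against 3.47% of clusters called higher), and Vcam1 and Selplg fell (2 of 9, against 4.12% called lower). The groups did not overlap for 7 of the 9, against 23.7% of clusters, and the median difference of the 9 was 1.21 against 0.01 over all clusters. These shares are a description, since the 9 genes were chosen with earlier results of these data known. All 9 also lay above background, whereas 49.0% of all clusters had a mean below it. After splenectomy only 1 of the 9, Jam2, was called against SE at the same time, where 1.33% of all clusters were called. The plots of levels by array show the peak of Selp, Sele and Jam2 in the LR 24 h group.

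**Figure D1:**
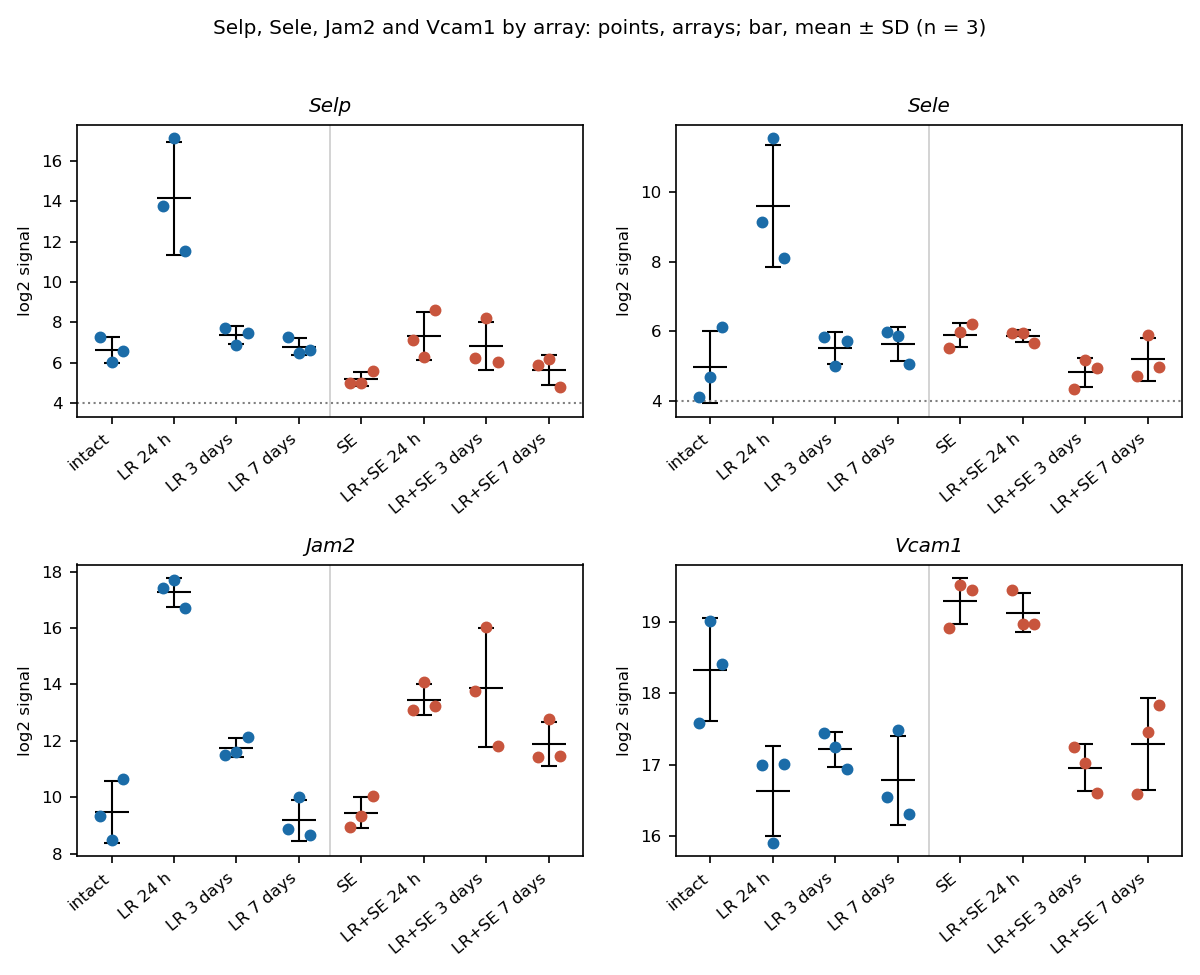
Log2 signal of Selp, Sele, Jam2 and Vcam1 (y axes, which differ in range) on each array by group (x axis): points are arrays, bars are the mean ± SD of 3 arrays, blue is spleen in place and red is spleen removed, and the dotted line is the background level of 3.98. The 3 LR 24 h arrays lie above all other arrays for Selp, Sele and Jam2, and Vcam1 is highest in SE and LR+SE 24 h, with means of 19.29 and 19.13.

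Selp encodes P-selectin, which endothelium and platelets store in granules and bring to the surface on activation. Its signal was 7.29, 6.02 and 6.60 on the intact arrays and 13.78, 17.14 and 11.54 on the LR 24 h arrays. All 3 arrays after resection lay above every array of the other groups, whose highest value was 8.61, and replicate 2 was highest. The difference was 7.52 ± 0.91 (SE, n = 3 and 3, adjusted p = 4.3e-05). It ranged from 6.02 to 8.82 when single arrays were left out, the lowest without replicate 2 of LR 24 h, and was 6.85 with a block for Y-linked signal (adjusted p = 0.0143). At 3 days the level was back at 7.74, 6.86 and 7.47, where it had dropped by 6.80 from 24 h (adjusted p = 2.28e-04) and differed from intact by 0.72 ± 0.91 (adjusted p = 0.848). At 7 days it was 7.27, 6.48 and 6.61.

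Without the spleen, Selp read 5.01, 4.97 and 5.58 in SE and 7.14, 6.26 and 8.61 in LR+SE 24 h. The groups did not overlap, but the difference of 2.15 ± 0.91 was not called (adjusted p = 0.333, 95% interval 0.26 to 4.04). At 3 and 7 days the readings were 6.25, 8.21 and 6.06, and 5.89, 6.20 and 4.80. Set directly against LR 24 h, LR+SE 24 h differed by -6.82 ± 0.91 (adjusted p = 1.3e-04), and all 6 of these arrays carried Y-linked signal. The response to resection at 24 h differed by -5.37 ± 1.28 between splenectomised and other mice, with an adjusted p of 0.058 that just missed the threshold.

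Sele encodes E-selectin, which endothelium makes on stimulation by cytokines. It read 4.10, 4.68 and 6.13 in intact preparations, with replicates 1 and 2 close to background, and 9.16, 11.56 and 8.11 at 24 h. The groups were apart by 4.64 ± 0.61 (adjusted p = 8.29e-05), with 3.67 as the value without replicate 2 of LR 24 h and 4.45 with the Y block (adjusted p = 0.0172). Outside LR 24 h no array exceeded 6.20. From LR 24 h to LR 3 days Sele fell by 4.09 (adjusted p = 5.33e-04), to 5.85, 5 and 5.73.

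In splenectomised mice no rise of Sele was called. SE read 5.52, 5.98 and 6.20 and LR+SE 24 h 5.96, 5.95 and 5.65, a difference of -0.04 ± 0.61 (adjusted p = 0.99, 95% interval -1.31 to 1.22). LR+SE 24 h differed from LR 24 h by -3.76 ± 0.61 (adjusted p = 9.21e-04). The test of the difference between the responses gave -4.69 ± 0.86 (adjusted p = 0.0154), called for 0.684% of all clusters and for no other member at this time. It kept its call with each of the 12 arrays left out, and lost it with the Y block (-4.50, adjusted p = 0.167), a setting in which 1 cluster of all was called.

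Selp and Sele both lie on chromosome 1, and F5, which encodes coagulation factor V, follows Selp in the RefSeq gene order. F5 was not called at LR 24 h against intact (1.22 ± 0.39, adjusted p = 0.0646). It rose in LR+SE 24 h against SE by 2.95 ± 0.39 (adjusted p = 3.59e-04), where neither selectin was called. F5 is also on the list of large peritoneal macrophage markers used below. The mean of the hepatocyte markers was 8.14 to 9.93 in SE and 11.33 to 12.38 in LR+SE 24 h preparations. Which cells carried the F5 signal was not tested.

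Promoter windows were at hand for 3 of the 9 members in the RefSeq table used here, Selp, Sele and Icam1, and are shown because all 3 rose at LR 24 h and their transcription in endothelium is known to answer to inflammatory cytokines. The same is known of Vcam1, which fell and whose window was not analysed here. Each is the 250 bases before the annotated start, on the plus strand of GRCm38.p6: Selp at chr1:164115014-164115263, Sele at chr1:164047984-164048233 and Icam1 at chr9:21015690-21015939. Capitals mark matches to GGANNNTCC or GGGNNNNNCC (shapes that many NF-kappaB sites have), TGANNTCA (of ATF type) or TATAAA, searched on both strands.
Selp: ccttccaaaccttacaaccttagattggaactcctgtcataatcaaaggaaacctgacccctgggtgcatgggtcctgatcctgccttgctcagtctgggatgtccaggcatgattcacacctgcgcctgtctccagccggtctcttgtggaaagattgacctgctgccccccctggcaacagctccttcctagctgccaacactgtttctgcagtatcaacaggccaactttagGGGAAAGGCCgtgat
Sele: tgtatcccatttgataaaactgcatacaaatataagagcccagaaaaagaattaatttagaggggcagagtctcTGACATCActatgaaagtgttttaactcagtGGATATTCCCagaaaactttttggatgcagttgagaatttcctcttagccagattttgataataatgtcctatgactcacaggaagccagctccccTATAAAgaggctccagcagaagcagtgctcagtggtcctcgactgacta
Icam1: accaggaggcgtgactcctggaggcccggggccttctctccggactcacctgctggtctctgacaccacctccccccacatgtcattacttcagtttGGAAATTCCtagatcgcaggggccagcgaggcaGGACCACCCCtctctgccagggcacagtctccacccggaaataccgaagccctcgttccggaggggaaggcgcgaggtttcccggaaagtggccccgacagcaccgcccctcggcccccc
Sele held TATAAA 49 to 44 bases before the start, TGACATCA 176 to 169 bases before it, and GGATATTCCC, in which a match to GGANNNTCC overlaps one to GGGNNNNNCC on the other strand. Icam1 held GGAAATTCC 153 to 145 bases before the start and a GGGNNNNNCC match, on the minus strand, 120 to 111 bases before it. Selp held 1 match, to GGGNNNNNCC, 15 to 6 bases before the start. Over 32851 mouse windows of the same length, GGGNNNNNCC was found in 45.8%, TATAAA in 12.4%, TGANNTCA in 11.9% and GGANNNTCC in 7.3%. A match describes letters, not a bound site. GC content was 53.6% in the Selp window, 40.4% in that of Sele and 65.2% in that of Icam1.

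Selplg encodes PSGL-1, the leukocyte ligand of P-selectin, and at LR 24 h moved against the selectins. Its r with Selp was -0.33 over the 24 arrays and 0.19 without LR 24 h. Selplg read 13.49, 13.29 and 12.68 in intact preparations and 12.15, 11.62 and 11.59 at LR 24 h. The groups did not overlap, and the difference of -1.37 ± 0.42 was just called (adjusted p = 0.049). That call was lost with 5 of 6 arrays left out in turn, with quantile normalisation, with an intensity trend, with the replicate number as a block and with the Y block (-0.48, adjusted p = 0.829). At LR 3 days the values were 13.35, 13.43 and 13.69, a rise of 1.70 ± 0.42 over 24 h (adjusted p = 0.0191) that was lost without replicate 2 or 3 of either group (adjusted p of 0.0603 to 0.0875). At LR 7 days they were 11.36, 12.43 and 11, a difference of -1.89 ± 0.42 from 3 days (adjusted p = 0.0245), a call lost with 5 of 6 arrays left out in turn (all but replicate 2 of LR 7 days) and in a fit of these groups alone (adjusted p = 0.0876). No splenectomised group was called against another, and their means lay between 12.38 and 13.13.

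Jam2 encodes JAM-B, an immunoglobulin protein of endothelial junctions that binds JAM-C and the integrin alpha4 beta1. It had the largest difference of the 9 genes at LR 24 h. Its signal was 9.32, 8.47 and 10.64 in intact preparations and 17.41, 17.69 and 16.70 at LR 24 h, where all 3 arrays lay above every other array. The difference, 7.79 ± 0.73 (adjusted p = 3.68e-06), was the fourth of all 22206 clusters by p and was 8.32 with the Y block (adjusted p = 6.35e-04). Jam2 then fell by 5.52 ± 0.73 to 11.51, 11.60 and 12.15 at 3 days (adjusted p = 2.28e-04). These readings were above all intact arrays, but the difference from intact of 2.28 ± 0.73 was not called (adjusted p = 0.12). At 7 days Jam2 read 8.88, 10.00 and 8.66 and overlapped the intact group.

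After splenectomy Jam2 was called at 24 h and at 3 days. SE read 8.95, 9.34 and 10.04, and LR+SE 24 h 13.08, 14.07 and 13.24, higher by 4.02 ± 0.73 (adjusted p = 0.00499). LR+SE 3 days read 13.76, 16.05 and 11.83, 4.44 ± 0.73 above SE (adjusted p = 6.44e-04), or 3.35 above it without replicate 2 (adjusted p = 0.00304). Hepatocyte markers were higher in the whole LR+SE 3 days group, 7 of 8 against SE (median difference 5.37), with list means of 13.30 to 15.85 against 8.14 to 9.93, and replicate 2 had the highest mean of any array. In LR+SE 24 h the list means were 11.33 to 12.38, also above all SE arrays. The part of hepatocytes in the Jam2 differences at 24 h and 3 days was not tested. LR+SE 7 days read 11.42, 12.79 and 11.46, which did not overlap SE yet was not called (2.45 ± 0.73, adjusted p = 0.0917). Against LR 24 h, LR+SE 24 h differed by -3.81 ± 0.73 (adjusted p = 0.00411). Differences between the responses were not called at any time: -3.77 ± 1.03 at 24 h (adjusted p = 0.0945), 2.16 ± 1.03 at 3 days (adjusted p = 0.532) and 2.74 ± 1.03 at 7 days (adjusted p = 0.296).

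Pecam1 encodes PECAM-1, carried by endothelium, platelets and leukocytes. It read 11.30, 11.40 and 11.66 in intact preparations and 12.28, 13.33 and 12.39 at LR 24 h, with no overlap but no call (1.21 ± 0.41, adjusted p = 0.0792; with the Y block 2.45, adjusted p = 0.0132). At LR 3 days it had fallen, with a difference of -1.79 ± 0.41 from LR 24 h (adjusted p = 0.012), at 10.66, 10.92 and 11.04, and without replicate 2 of LR 24 h this was -1.46 (adjusted p = 0.0946), and the call was also lost without replicate 1 of LR 3 days (-1.68, adjusted p = 0.0532). LR+SE 24 h read 11.31, 10.81 and 10.95 and differed from LR 24 h by -1.64 ± 0.41 (adjusted p = 0.0281). That call was lost without replicate 2 or 3 of LR+SE 24 h or replicate 2 of LR 24 h. LR+SE 7 days read 12.27, 12.19 and 12.39, above all SE arrays and not called (1.36 ± 0.41, adjusted p = 0.0959).

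Cdh5 encodes VE-cadherin, the adhesive protein of endothelial adherens junctions. It was called in none of the 17 comparisons. Its group means ran from 15.63 to 16.99, and LR 24 h differed from intact by -0.12 ± 0.48 (95% interval -1.13 to 0.88) as LR+SE 24 h did from LR 24 h (95% interval -1.12 to 0.89). The 2 lowest arrays were replicate 2 of LR+SE 3 days (14.19) and replicate 1 of LR 7 days (14.87).

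**Figure D2:**
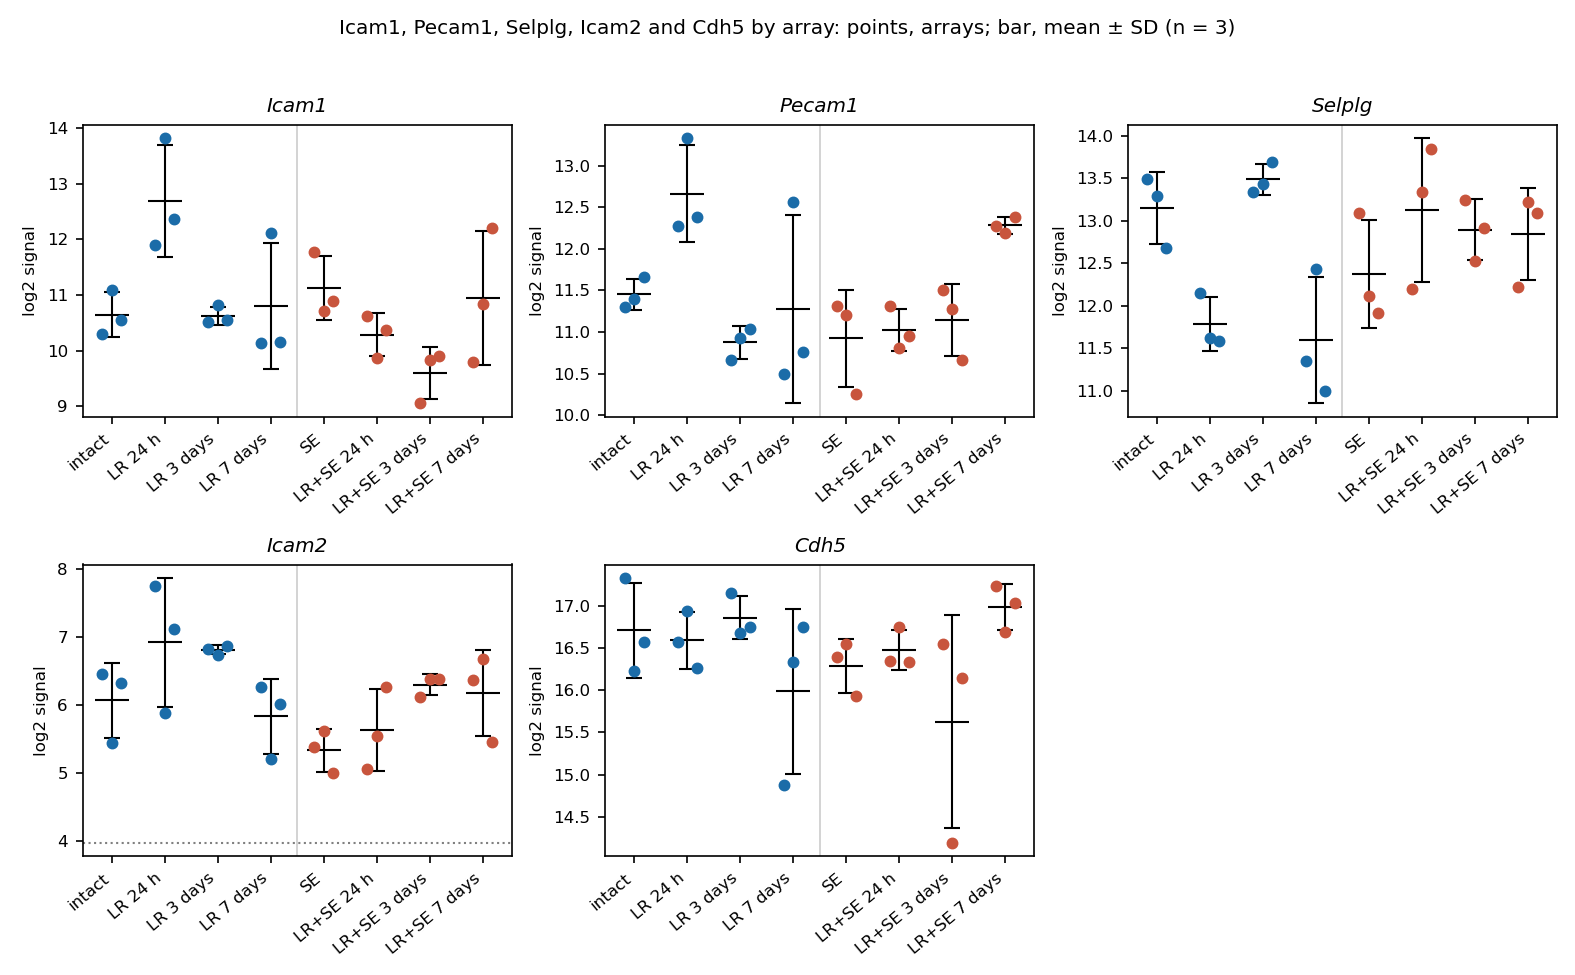
Log2 signal of Icam1, Pecam1, Selplg, Icam2 and Cdh5 (y axes, which differ in range) on each array by group (x axis): points are arrays, bars the mean ± SD of 3 arrays, blue is spleen in place, red is spleen removed, and the dotted line is the background level of 3.98. Icam1 and Pecam1 have their highest mean at LR 24 h (12.69 and 12.67), and the Cdh5 means stay between 15.63 and 16.99.

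Vcam1 encodes VCAM-1, the ligand of alpha4 integrins, and at LR 24 h moved the other way from the selectins. It read 17.58, 19.01 and 18.41 in intact preparations and 16.99, 15.91 and 17.01 at LR 24 h, without overlap. The difference of -1.69 ± 0.39 (adjusted p = 0.00843) was lost with the Y block (-0.95, adjusted p = 0.517), in a fit of these groups alone (adjusted p = 0.0561), without replicate 2 of intact and without replicate 2 of LR 24 h (adjusted p = 0.0658 and 0.0723). LR 3 days and LR 7 days differed from intact by -1.12 ± 0.39 and -1.55 ± 0.39 and were not called (adjusted p = 0.165 and 0.0578).

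In splenectomised mice a fall of Vcam1 was called at 3 and 7 days and not at 24 h. SE read 18.92, 19.51 and 19.44 and LR+SE 24 h 19.44, 18.98 and 18.97, a difference of -0.16 ± 0.39 (adjusted p = 0.924). LR+SE 3 days read 17.25, 17.03 and 16.61 and differed from SE by -2.33 ± 0.39 (adjusted p = 7.44e-04), and LR+SE 7 days by -2.00 ± 0.39 (adjusted p = 0.0117, and 0.0556 without replicate 3 of SE). The raised hepatocyte markers of LR+SE 3 days, given beside Jam2, apply to Vcam1 as well, and their part was not tested. LR+SE 24 h lay above LR 24 h, by 2.49 ± 0.39 (adjusted p = 5.96e-04), a call kept with each array left out. Values above 19 are near the top of the scale, whose highest reading was 19.93, so differences among SE, LR+SE 24 h and intact preparations may be compressed. The difference between the responses at 24 h was 1.53 ± 0.55 (adjusted p = 0.213).

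Icam1 encodes ICAM-1, the ligand of LFA-1 and Mac-1 on leukocytes. Its readings were 10.30, 11.09 and 10.55 in intact preparations and 11.89, 13.81 and 12.36 at LR 24 h, which did not overlap. The rise of 2.04 ± 0.57 (adjusted p = 0.0288) was lost without replicate 2 of LR 24 h (1.48, adjusted p = 0.193), without replicate 1 or 3 of intact and with the Y block (2.62, adjusted p = 0.137). LR 3 days differed from LR 24 h by -2.06 ± 0.57 (adjusted p = 0.0368), called in only 1 of 6 fits with an array left out. LR+SE 24 h read 10.62, 9.86 and 10.37, a difference of -2.41 ± 0.57 from LR 24 h (adjusted p = 0.0191) and of -0.84 ± 0.57 from SE, which was not called (adjusted p = 0.61). The former call was lost without replicate 2 of either group, at 0.111 and 0.139. The responses at 24 h differed by -2.88 ± 0.80 (adjusted p = 0.1).

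Icam2 encodes ICAM-2, present on resting endothelium and used as a surface marker of large peritoneal macrophages. It was called in none of the 17 comparisons. At LR 24 h it read 7.76, 5.89 and 7.13 against 6.46, 5.44 and 6.32 in intact preparations, an overlap, with a difference of 0.85 ± 0.42 (adjusted p = 0.273). Replicate 2, the highest array of LR 24 h for Selp, Sele, Jam2, Icam1 and Pecam1, was its lowest for Icam2. LR+SE 24 h differed from LR 24 h by -1.29 ± 0.42, not called (adjusted p = 0.105).

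**Figure D3:**
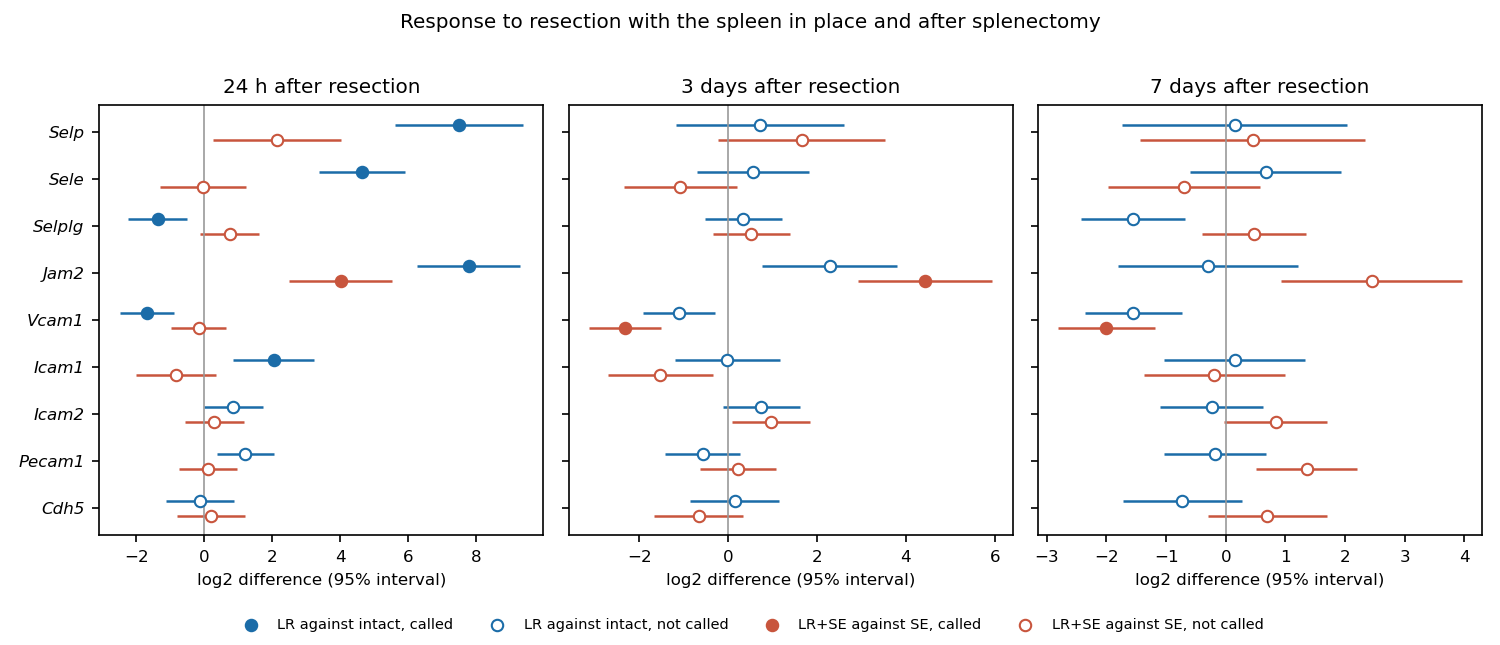
Difference in log2 signal (x axis, with the 95% interval of limma; the range differs between panels) of each gene (y axis) at 3 times after resection, for LR against intact (blue) and LR+SE against SE (red); filled points had an adjusted p under 0.05. At 24 h Selp, Sele and Jam2 reach 7.52, 4.64 and 7.79 with the spleen in place and 2.15, -0.04 and 4.02 without it.

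Later times gave few calls. LR 3 days and LR 7 days against intact called 0 of the 9 genes, against 2.36% and 1.00% of all clusters, and 2 of the 9 had an unadjusted limma p under 0.05 in each. LR+SE 3 days against SE called 2 (Jam2 and Vcam1) against 6.92% of clusters, and LR+SE 7 days against SE called 1 (Vcam1) against 1.52%. Between 24 h and 3 days 6 of the 9 were called with the spleen in place, against 5.18% of clusters, of which only Selplg rose. In splenectomised mice only Vcam1 was called over the same span, against 1.31%. From 3 to 7 days 1 gene (Selplg) was called in LR, against 1.57% of clusters, and 0 in LR+SE, against 1.36%, where 4 had an unadjusted limma p under 0.05. The comparisons with intact share that group's arrays, as those with SE do.

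Splenectomy alone called 0 of the 9 against intact, where 0.554% of clusters were called, and 1 gene, Vcam1, had an unadjusted limma p under 0.05 (0.96 ± 0.39, adjusted p = 0.288). The groups did not overlap for 1 of the 9, Selp, against 16.9% of clusters, and Selp in SE differed by -1.45 ± 0.91 (adjusted p = 0.541). LR+SE 24 h against LR 24 h called 6 of the 9, against 3.26% of clusters: Selp, Sele, Jam2, Icam1 and Pecam1 were lower and Vcam1 was higher. The same comparison at 3 days called 0 of the 9, against 0.126%, and at 7 days 0, against 1.64%, with 2 and 3 genes at an unadjusted limma p under 0.05. Differences between the responses at 3 and 7 days called 0 as well, against 0.513% and 0.122% of clusters, with 2 and 4 genes at an unadjusted limma p under 0.05. In all, 25 of 153 member differences were called, and 15 of the 25 kept their call with each array left out.

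**Figure D4:**
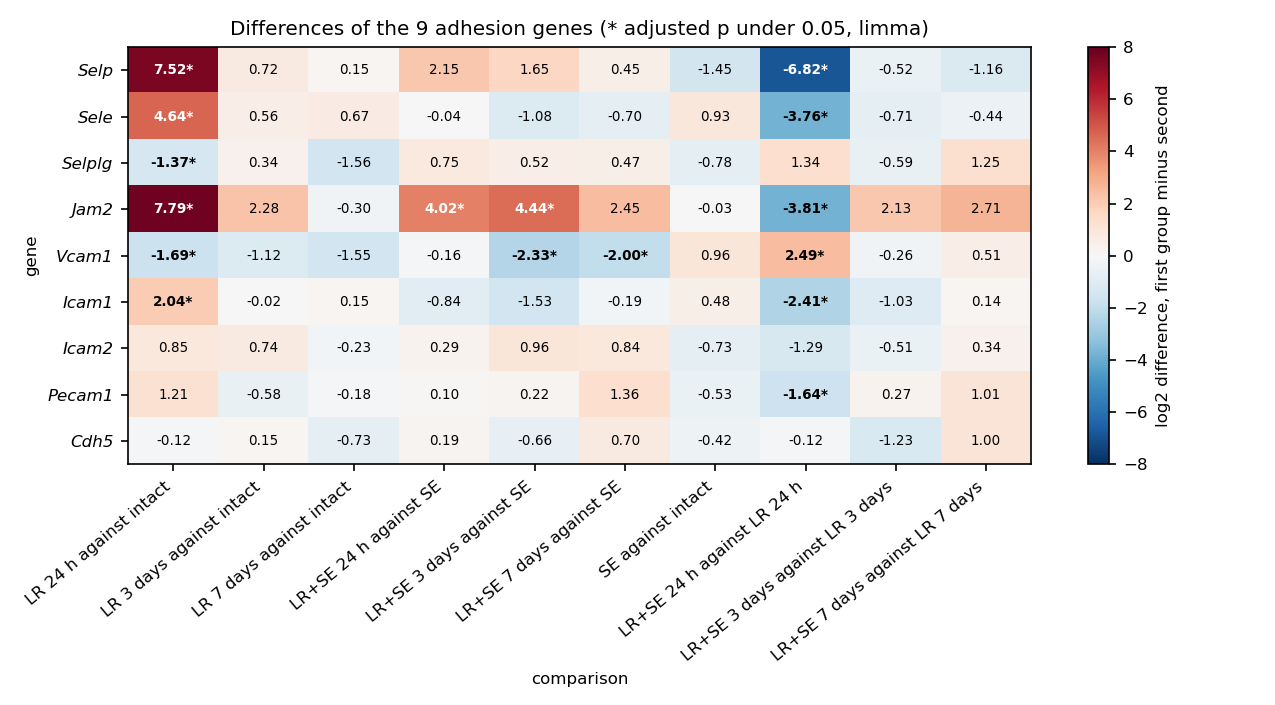
Difference in log2 signal, first group minus second (colour and number), of each gene (rows) in 10 comparisons (columns), with an asterisk where the adjusted p of limma was under 0.05. The calls gather in LR 24 h against intact and in LR+SE 24 h against LR 24 h, with 6 of 9 genes each, and Icam2 and Cdh5 have none.

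The counter-receptors of these proteins were mostly not called. Of 9 integrin chains that bind ICAM, VCAM or JAM proteins, only Itgam, the alpha chain of Mac-1, was called at LR 24 h against intact. Itgam read 5.23, 7.67 and 8.01 in intact preparations and 14.53, 16.49 and 15.73 at LR 24 h, higher by 8.61 ± 1.15 (adjusted p = 9.93e-05), and at LR 3 days it was still 5.60 ± 1.15 higher (adjusted p = 0.0101). Itgal, Itga4, Itgb1 and Itgb2, the chains of LFA-1 and VLA-4, differed by 1.08, -0.01, 0.39 and 1.12 at 24 h and were not called. In LR+SE 24 h Itgam was 4.01 ± 1.15 above SE and not called (adjusted p = 0.098), and no integrin chain was called between LR+SE 24 h and LR 24 h. Itgam is also carried by neutrophils and monocytes. In bulk RNA, a larger number of cells of a type and more RNA per cell cannot be told apart. Of 9 measured neutrophil markers 5 rose at LR 24 h against intact (median difference 4.20), among them S100a8 by 8.76 ± 1.53 and Retnlg by 7.30 ± 1.11, and 8 rose in LR+SE 24 h against SE (median 6.39). Their list mean was 5.27 to 6.42 in intact, 9.74 to 10.83 in LR 24 h, 5.72 to 8.41 in SE and 12.34 to 12.62 in LR+SE 24 h preparations. Of 7 monocyte markers 2 rose in each of these comparisons. The monocyte list mean was 5.99 to 6.32 in intact, 8.59 to 8.99 in LR 24 h, 6.62 to 7.00 in SE and 9.29 to 10.02 in LR+SE 24 h preparations. The part of these cells in the differences of Itgam and of the 9 adhesion genes was not tested.

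Among 13 measured genes of selectin ligands and their synthesis, 1 was higher and 2 were lower at LR 24 h. Cd24a, a ligand of P-selectin, rose by 2.74 ± 0.69 (adjusted p = 0.0159), and by 4.42 ± 0.69 in LR+SE 24 h against SE (adjusted p = 0.00151). Gcnt1 and St3gal6, glycosyltransferases of selectin ligand sugars, differed by -1.73 ± 0.32 and -2.18 ± 0.59 (adjusted p = 0.00169 and 0.0242). Gcnt1 was higher in LR+SE 24 h than in LR 24 h by 2.08 ± 0.32 (adjusted p = 5.5e-04), and the difference between its responses was called, at 2.34 ± 0.46 (adjusted p = 0.021). The median of the list at LR 24 h was -0.07, against 0.01 over all clusters.

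Of 21 other measured junction and adhesion proteins of vessels, 5 were higher and 1 was lower at LR 24 h, and 4 were below background on every array (Madcam1, Icam4, Icam5 and Aoc3). Alcam rose by 3.59 ± 0.58 (adjusted p = 4.33e-04), F11r, which encodes JAM-A, by 3.13 ± 0.46 (adjusted p = 1.98e-04), Mcam by 2.76 ± 0.49 and Tjp1, which encodes ZO-1, by 2.25 ± 0.50. Jup, plakoglobin of the adherens junction, fell by 1.86 ± 0.36 (adjusted p = 0.00247). F11r and Alcam were lower in LR+SE 24 h than in LR 24 h, with differences of -2.14 and -2.17, and Jup was higher by 2.00. Jam3, the binding partner of Jam2, read above background on only 3 arrays.

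Some markers of endothelium, of peritoneal macrophages, of platelets and of neutrophils rose at LR 24 h too. The mean signal of 11 measured markers of general endothelium was 6.12 to 7.34 in intact and 8.03 to 8.78 in LR 24 h preparations. It was 6.20 to 6.63 in SE and 6.66 to 6.82 in LR+SE 24 h preparations. At LR 24 h 4 of the 11 rose (Rspo3, Plvap, Tek and Tie1), Plvap from 5.76, 5.27 and 6.04 to 9.73, 9.32 and 9.11, while Sox17 was below background throughout. Vwf, whose product shares storage granules with P-selectin in endothelium, was between 3.98 and 4.21 in intact and between 4.83 and 5.68 in LR 24 h preparations. Of 10 sinusoidal endothelial markers 3 rose at LR 24 h (Lyve1, Flt4 and Clec4g). The mean of the list was 11.68 to 13.49 in intact, 13.59 to 14.10 in LR 24 h, 12.15 to 12.68 in SE and 12.34 to 12.91 in LR+SE 24 h preparations. Whether the endothelial share of the preparations had a part in the selectin and Jam2 differences was not tested. Cdh5 differed by -0.12 at LR 24 h against intact, and which cells of the preparations carried its signal was not tested.

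At 7 days sinusoidal markers were called where the adhesion genes were not. Of the 10 sinusoidal markers 9 were higher in LR+SE 7 days than in LR 7 days, with list means of 13.35 to 14.50 and 10.46 to 10.93, whereas 0 of the 9 adhesion genes were called. Pecam1 was 1.01 ± 0.41 and Cdh5 1.00 ± 0.48 higher there, and Jam2 2.71 ± 0.73 (adjusted p = 0.263, 0.385 and 0.0647).

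Large peritoneal macrophages of mice are known to express Selp and Icam2 as well. Of 10 measured markers of these cells 5 rose at LR 24 h, among them Serpinb2 by 8.77 ± 0.82 and Prg4 by 6.56 ± 0.66. Their list mean was 6.25 to 6.63 in intact, 8.62 to 9.62 in LR 24 h and 7.75 to 8.02 in LR 3 days preparations. In SE it was 5.44 to 5.79 and in LR+SE 24 h 6.29 to 7.25, above all SE arrays. Of the 10 markers 4 were lower in LR+SE 24 h than in LR 24 h. Gata6, the factor that defines these cells, was below background on all arrays of intact, LR 24 h and LR+SE 24 h (3.37 to 3.43 at LR 24 h). Within LR 24 h the list was lowest on replicate 2 (8.62), the array with the highest Selp. The lists of general and of sinusoidal endothelium were highest on that array (8.78 and 14.10). The part of these cells in the Selp difference was not tested.

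Of 8 measured platelet markers 2 rose at LR 24 h against intact (median difference 0.17) and 3 in LR+SE 24 h against SE (0.21). Pf4 was 6.47 ± 1.08 higher in LR 24 h than in intact and 4.71 ± 1.08 higher in LR+SE 24 h than in SE preparations. The mean of the list was 4.96 to 5.07 in LR 24 h against 3.63 to 3.99 in intact, and 4.88 to 5.15 in LR+SE 24 h against 3.78 to 4.14 in SE. Gp5 and Gp6 were below background on all arrays, and Itga2b read 5.42, 5.75 and 5.63 at LR 24 h against 4.96, 6.00 and 5.68 in intact. The ranges of the platelet list in LR 24 h and LR+SE 24 h overlapped. The part of platelets in the Selp difference was not tested. Macrophages themselves can express Pf4. The mean of 8 Kupffer cell markers was 15.17 to 16.95 at LR 24 h, below the 17.03 to 17.66 of the intact arrays. It was 16.56 to 17.06 in LR+SE 24 h and 16.65 to 17.48 in SE preparations. At 3 and 7 days it was 17.30 to 17.42 and 16.35 to 17.15 in LR, and 15.20 to 17.27 and 17.37 to 17.87 in LR+SE preparations. Timd4 and C6 of that list fell at LR 24 h against intact. The part of Kupffer cells in the Vcam1 and Selplg differences was not tested.

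**Figure D5:**
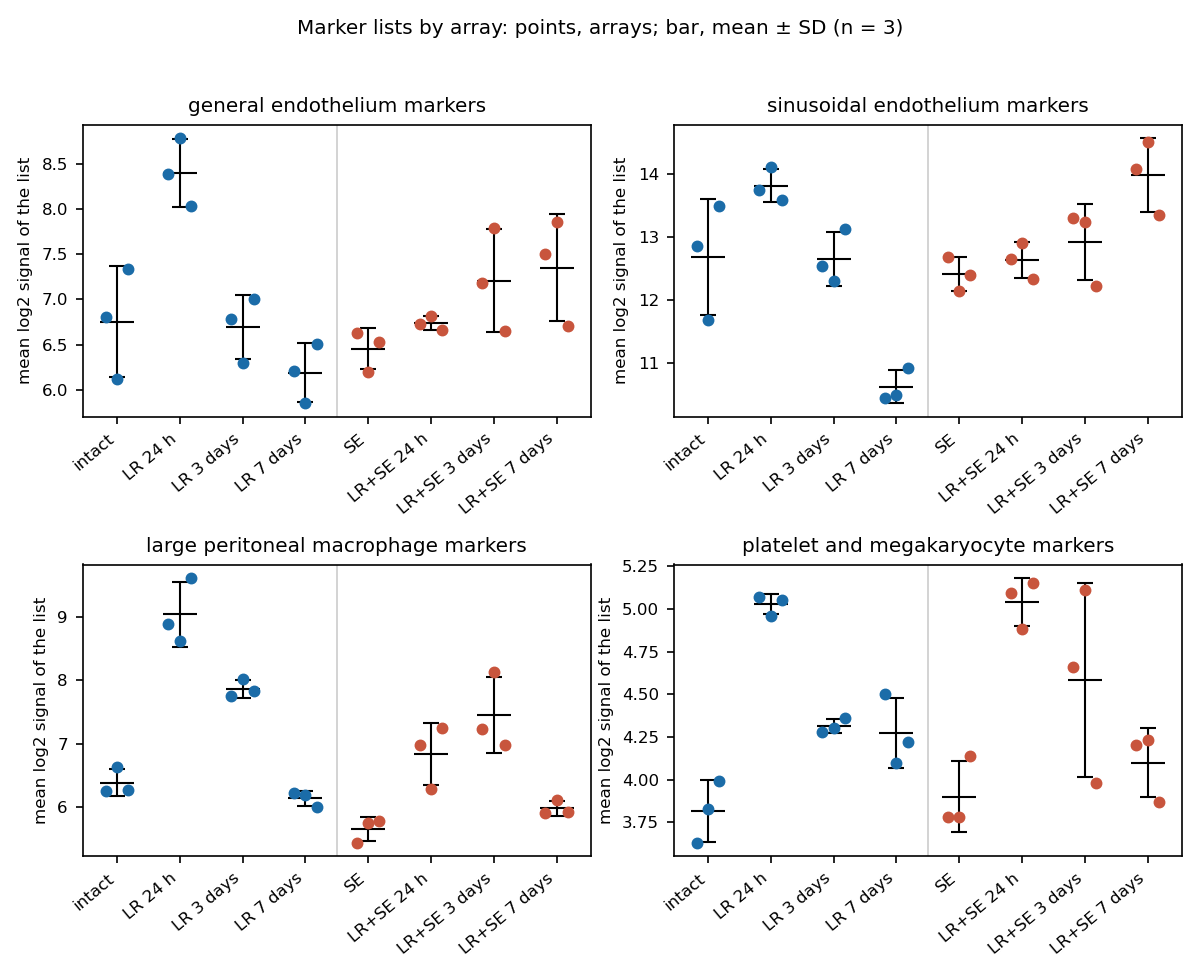
Mean log2 signal of 4 marker lists (y axes, which differ in range) on each array by group (x axis): points are arrays, bars the mean ± SD of 3 arrays, blue is spleen in place and red is spleen removed. General endothelium and peritoneal macrophage markers are highest in LR 24 h (8.03 to 8.78 and 8.62 to 9.62), and platelet markers range from 4.96 to 5.07 in LR 24 h and from 4.88 to 5.15 in LR+SE 24 h.

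Ordered by group means, LR 24 h came first for Selp, Sele, Jam2, Icam1, Icam2 and Pecam1. For Selp it stood at 14.15 and LR 3 days, next at 7.36, did not overlap it, while every further pair of neighbours overlapped down to SE at 5.19. Sele had the same form, 9.61 in LR 24 h and 5.90 in SE as the next, with all lower neighbours overlapping. Jam2 had 3 gaps, from LR 24 h (17.27) to LR+SE 3 days (13.88), from LR+SE 24 h (13.46) to LR+SE 7 days (11.89), and from LR 3 days (11.75) to intact (9.48). Icam1 had 1 gap, below LR 24 h. Vcam1 ran from SE (19.29) to LR 24 h (16.64), Selplg from LR 3 days (13.49) to LR 7 days (11.60) and Cdh5 from LR+SE 7 days to LR+SE 3 days, each with neighbours that overlapped throughout. The spread within groups was widest for Selp, with a pooled SD of 1.24, then Jam2 (0.98) and Sele (0.82), and narrowest for Vcam1 (0.51).

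As a description over 24 arrays, which share groups, the gene most like both selectins was Akap12, a scaffold protein of kinase A, with Pearson r of 0.955 for Selp and 0.914 for Sele. Akap12 read 9.47 to 14.00 at LR 24 h and no more than 6.25 elsewhere, and without the 3 LR 24 h arrays r was 0.537 and 0.071. The selectins correlated with each other at 0.88, and at 0.04 over the 21 other arrays, so that the likeness rests on LR 24 h. Jam2 was most like Thbd, thrombomodulin (r = 0.948), Lyve1, the hyaluronan receptor (0.936), and Il1r1 (0.931), and these were 0.901, 0.893 and 0.882 without LR 24 h. Thbd read 13.14 to 14.83 at LR 24 h, 10.60 to 11 at LR+SE 24 h and 5.66 to 7.71 in intact preparations. Next to Selp came Adamts4 (0.921) and Ptges (0.916), and next to Sele came Apold1 (0.906) and Kcnj8 (0.888).

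For the other 6 members, r without LR 24 h was at least 0.646 for each of the 3 nearest genes. Selplg was most like Med24 (0.900), Dazap2 and C1qb, and Vcam1 like Adcy3 (0.869), Slc15a2 and Cd300lb. Icam1 was most like Tnip1 (0.883; 0.751 without LR 24 h), which encodes a restraint of NF-kappaB signalling, then Tnip2 and Dst. Icam2 was most like Emcn, the endothelial sialomucin endomucin (0.839), then Degs1 and Bola2. Pecam1 was most like Cd55, a complement regulator (0.855), then Rapgef5 and Cd55b, and Cdh5 like Calhm2 (0.819), Tanc2 and Rhbdd3. Cdh5 had no r above 0.29 with another of the 9 genes over the 24 arrays.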

How the data were processed

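The authors hybridised RNA of liver macrophages (cells that carry the antigen encoded by Adgre1), enriched on a density gradient and sorted on magnetic beads, to Clariom S mouse arrays. They deposited 1 normalised log2 value per cluster and array, made by robust multi-array averaging (RMA) in the Transcriptome Analysis Console, per the labels. Versions and the variant of RMA are not given in the sources used here, and values ran from 1.73 to 19.93. Of 28846 entries, 6640 control probesets were left out. Symbols came from the platform annotation: 19572 clusters had 1 symbol and 2634 none. Raw scans and scan dates were not used here.

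All 8 groups, taken from the labels, entered 1 fit in limma 3.58.1 (R 4.3.3) with group means, eBayes, 17 contrasts and 16 residual degrees of freedom, and p-values were adjusted over 22206 clusters. For 3 arrays against 3 an exact permutation test could not go below 0.1, so none was run. P-values measure only the spread between arrays of a group, which may not be separate pools of mice. The text names all 9 genes, the 3 clusters most correlated with each, and up to 4 called genes of each list. Values named beside them for other list genes, the neighbour F5 among them, were chosen after they were seen. The 9 genes and all lists were chosen with earlier results of these data known. List means average log2 values. Replicate numbers do not pair the samples. The script was tested on simulated data. Alternatives were quantile normalisation, a filter on dim clusters, an intensity trend, array weights, replicate and Y-linked blocks, a fit of the compared groups alone and leaving out each array. Promoter windows came from RefSeq (GRCm38.p6). The build of the array annotation is not given in the sources used here, so coordinates are printed only for these windows.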

Additional observations from a re-analysis of the deposited data

Results flagged for a closer look

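The response of Sele to resection differed between mice with and without a spleen at 24 h. The interaction of the limma fit was -4.69 ± 0.86 (SE, adjusted p = 0.0154): LR 24 h was 4.64 above intact in log2 signal, with all 3 arrays above all intact arrays, while LR+SE 24 h differed from SE by -0.04. Leaving out single arrays gave -5.44 to -3.71, each called. With a block for Y-linked signal it was -4.50 (adjusted p = 0.167). The intact arrays lack that signal and the other 9 arrays of this comparison carry it. Groups of 3 arrays are too small to test for single outlying values.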

How the results depend on the processing

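None of the 25 called member differences changed direction under any alternative run. Some differences near 0 that were not called changed sign, that of Cdh5 at LR 24 h against intact among them. LR 24 h against intact (6 called) gave 7 with array weights (Pecam1 added), 5 with the intensity trend (without Selplg), 5 in the compared groups alone (without Vcam1), 4 with the Y-linked block (Selp, Sele, Jam2 and Pecam1) and 6 with quantile normalisation (Pecam1 in place of Selplg). Array weights gave 8 for LR+SE 24 h against LR 24 h in place of 6 (Selplg and Icam2 added). Counts that moved by over 1.5 times were these. At LR 3 days against intact (0 called), array weights gave 2 and the fit of the compared groups alone 1. At LR 7 days against intact (0), the filter on dim clusters gave 1 and array weights 2. At LR+SE 7 days against SE (1), the Y-linked block and the compared groups alone gave 2 each. At LR+SE 7 days against LR 7 days (0), quantile normalisation and the dim filter gave 1 each (Jam2), and array weights and the Y-linked block 3 each (Selplg, Jam2 and Pecam1). The interaction at 24 h (1) gave 2 with the dim filter and with array weights (Selp and Sele), 2 in the compared groups alone (Sele and Jam2) and 0 with the Y-linked block. At LR 7 days against LR 3 days (1), the dim filter and array weights gave 2 and the compared groups alone 0, and at LR+SE 7 days against LR+SE 3 days (0) the Y-linked block gave 1 (Pecam1). The dim filter and the compared groups alone test fewer clusters or fit fewer arrays; the cause of the other changes was not tested.

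With 1 array left out, the counts ranged from 3 to 5 for LR 24 h against intact, 0 to 2 for LR 7 days against intact, 0 to 1 for LR+SE 7 days against SE, 4 to 7 for LR+SE 24 h against LR 24 h, 0 to 1 for LR+SE 3 days against LR 3 days, 0 to 3 for LR+SE 7 days against LR 7 days, 1 to 2 for the interaction at 24 h, 0 to 2 for that at 7 days, 3 to 6 for LR 3 days against LR 24 h, 0 to 2 for LR 7 days against LR 3 days and 0 to 1 for LR+SE 7 days against LR+SE 3 days. Elsewhere they stayed as reported: 0 for LR 3 days and SE against intact and the interaction at 3 days, 1 for LR+SE 24 h against SE and for LR+SE 3 days against LR+SE 24 h, and 2 for LR+SE 3 days against SE. An array left alone with 1 other was assumed to vary as the other groups did.

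The same replicate numbers occur in all groups, but same-numbered arrays deviated together in only 3 of 28 pairs of groups. With the number as a replicate block, LR 24 h against intact called 5 members in place of 6 (Selplg -1.37, adjusted p = 0.0638), and no other member call changed. No member had several clusters, so the choice among clusters gave no alternative value. Signal near the top of the scale limits Vcam1, and signal near background limits Sele on replicates 1 and 2 of intact.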
